A study of Rattus norvegicus with 19 samples.

Results

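Solute carriers are membrane proteins that move small molecules across the plasma membrane and the membranes of organelles, and aquaporins form pores for water and, in some members, for glycerol. The genes described here were the solute carrier and aquaporin genes that were expressed in a series of rat cells measured on Affymetrix arrays. They were chosen by symbol (Slc followed by a family number and a member number, Slco, or Aqp, without Slc4a1) and by level: the brightest probe set of each gene had to reach a mean signal of 100 in at least 1 of the 5 groups of samples. The array named 297 such genes, of which 140 reached this level. At the same level stood 7971 of the 14217 genes with a probe set of their own. Since the level in the groups chose the members, the groups in which a member was bright are a description of that choice. An adjusted p is therefore given for a member in a comparison only where a group outside that comparison also reached 100.

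The 19 samples were Sprague-Dawley rat cells. They comprised 5 stem Leydig cell samples, 3 progenitor, 4 immature and 4 adult Leydig cell samples, and 3 bone stem cell samples, with no genetic change or treatment named in the labels. The sources used here do not give ages, isolation or culture. Nor do they say that replicates were taken from different animals or grown separately, so the p-values describe variation among these arrays, some or all of which may be technical. The 4 comparisons followed the lineage from stem to progenitor, from progenitor to immature and from immature to adult, and set the stem Leydig cells beside the bone stem cells.

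Leydig cells lie between the seminiferous tubules of the testis and make testosterone from cholesterol under the control of luteinizing hormone. Stem Leydig cells give rise to progenitor cells, which pass through an immature stage to the adult cell. Steroid synthesis starts in the mitochondrion and draws on acetyl groups, reducing equivalents and metal cofactors, all of which cross membranes through carriers. Glucose, lactate, amino acids and fatty acids likewise enter or leave the cell through members of these families.

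Signals are intensities on a linear scale with a trimmed mean near 100 on each array. Changes are differences of log2(signal + 16) with the standard error (SE) of the fit, and understate the fold of a dim gene. A member was called where limma's moderated test gave an adjusted p under 0.05 over all 31042 probe sets tested. Genes were named by a rule of size in each comparison, and others were chosen after their values were seen. Levels are compared between groups for 1 gene and never between genes, since each probe set has its own brightness.

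Markers of the labelled cells were checked first. All 8 Leydig markers (among them Cyp11a1, Cyp17a1 and Insl3) had group means of at least 16 in progenitor, immature and adult cells, whereas 6 of 8 lay under 16 in stem Leydig cells and 6 of 8 in bone stem cells. The 9 stem and mesenchymal precursor markers were divided, with 4 called higher and 4 lower in progenitor than stem Leydig cells. Of 5 measured bone markers, 4 were called lower in stem Leydig than bone stem cells, and 2 (Bglap and Phex) lay under 16 in bone stem cells. Markers of other cells moved with the groups as well. The summed signal of 15 leukocyte markers was 346 to 433 in stem Leydig cells and 9236 to 13670 in bone stem cells. It was 4147 to 5192 in progenitor, 2534 to 5151 in immature and 1233 to 3008 in adult cells. Of these markers, 5 were called lower and 2 higher in adult than immature cells. The sum of 10 measured endothelial markers was 334 to 517 in stem Leydig cells, 1104 to 2169 in progenitor, 327 to 935 in immature and 644 to 3279 in adult cells. The sum of 9 measured germ cell markers was 50.3 to 55.4 in stem Leydig cells, 169 to 374 in progenitor, 460 to 1160 in immature and 1416 to 3230 in adult cells. Of these germ cell markers, 3 were called higher in adult than immature cells and 1, Sycp3, was called lower (means of 21.0 and 72.5). The sum of 6 measured erythroid markers was 2475 to 5316 in progenitor and immature cells and at most 703 elsewhere. The sum of 6 measured Sertoli cell markers was 448 to 739 in stem Leydig and 1436 to 2452 in adult cells. Of these, Amh, Rhox5 and Gata1 had means under 16 in every group. Cldn11 was brightest in adult cells, at 1443, and Clu in stem Leydig cells, at 551 against 474 in adult cells. The part of these markers of other cells in the results was not tested unless a value is given. In such bulk samples, fewer cells of a type and less RNA per cell cannot be told apart. Immature replicate 4 stood nearer to the progenitor arrays (mean correlation 0.972) than to its own group (0.959), and progenitor replicate 3 had a 3' to 5' actin ratio of 6.35 against 1.03 to 2.95 on all other arrays.

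Most of the 140 genes differed along the lineage, and the first step held the largest changes. Progenitor cells had 49 members higher and 43 lower than stem Leydig cells (35% and 30.7%). The background was 22.0% higher and 14.7% lower over all probe sets. Among genes that reached the level of 100 in a group outside the comparison, the fairer yardstick, 32.1% were higher and 25.6% lower, against 47 (35.3%) and 38 (28.6%) of the 133 members that met the same condition. The members' median change was 0.03, beside 0.08 over all probe sets. The share of members called in this step thus lay near that of other expressed genes.

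Immature and progenitor cells differed least. A total of 8 members were higher in immature cells and 0 were lower in limma's test (5.71% higher). The background was 0.876% higher and 0.425% lower over all probe sets, and 1.91% and 0.505% among genes at the level in a group outside the comparison, where 8 of 134 members (5.97%) were called higher. At an unadjusted p under 0.05, 34 members were higher and 12 lower. The count of 8 depended on single arrays: without immature replicate 4, 27 members were called, 20 of them higher. It was 3 without progenitor replicate 1 or 2, 7 without progenitor replicate 3, and 4 without immature replicate 1, 2 or 3. With the samples of these 2 groups fitted alone, 0 members were called, the smallest adjusted p was 0.0564, and 34 members had an unadjusted p under 0.05. Of 9 measured germ cell markers, 6 were also called higher in immature than progenitor cells, and their part in this count was not tested. None of the 8 members kept its call under every alternative that was run.

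Adult cells differed from immature cells mainly by higher members. Here 45 members were higher and 20 lower (32.1% and 14.3%), where all probe sets gave 8.05% higher and 13.0% lower. Among genes at the level in a group outside the comparison the background was 15.8% higher and 22.8% lower, and 37 (28.9%) and 20 (15.6%) of 128 members were called. The members' median change was 0.14 and that of all probe sets -0.07. Of the called members 69.2% were higher, 80% when each array was centred on its median instead, a scaling that moved the median of all probe sets from -0.07 to 0.11. In the first step the same centring moved that median from 0.08 to -0.15 and the share of called members that were higher from 53.3% to 42.4%.

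Stem Leydig cells had 14 members higher and 47 lower than bone stem cells (10% and 33.6%). All probe sets gave 9.79% higher and 8.73% lower. Genes at the level in a group outside the comparison gave 12.1% and 17.7%, and 10 (8.93%) and 35 (31.2%) of 112 members were called. The count of higher members was 9 without bone stem replicate 2 or without bone stem replicate 3, 8 under median centring and 28 with array quality weights. This comparison shares its stem Leydig cell samples with the first step. Over the 4 Leydig stages together, the F-test called 119 of 140 members, with a background of 50.7% over all probe sets and 79.8% over all genes at the same level.

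**Figure D1:**
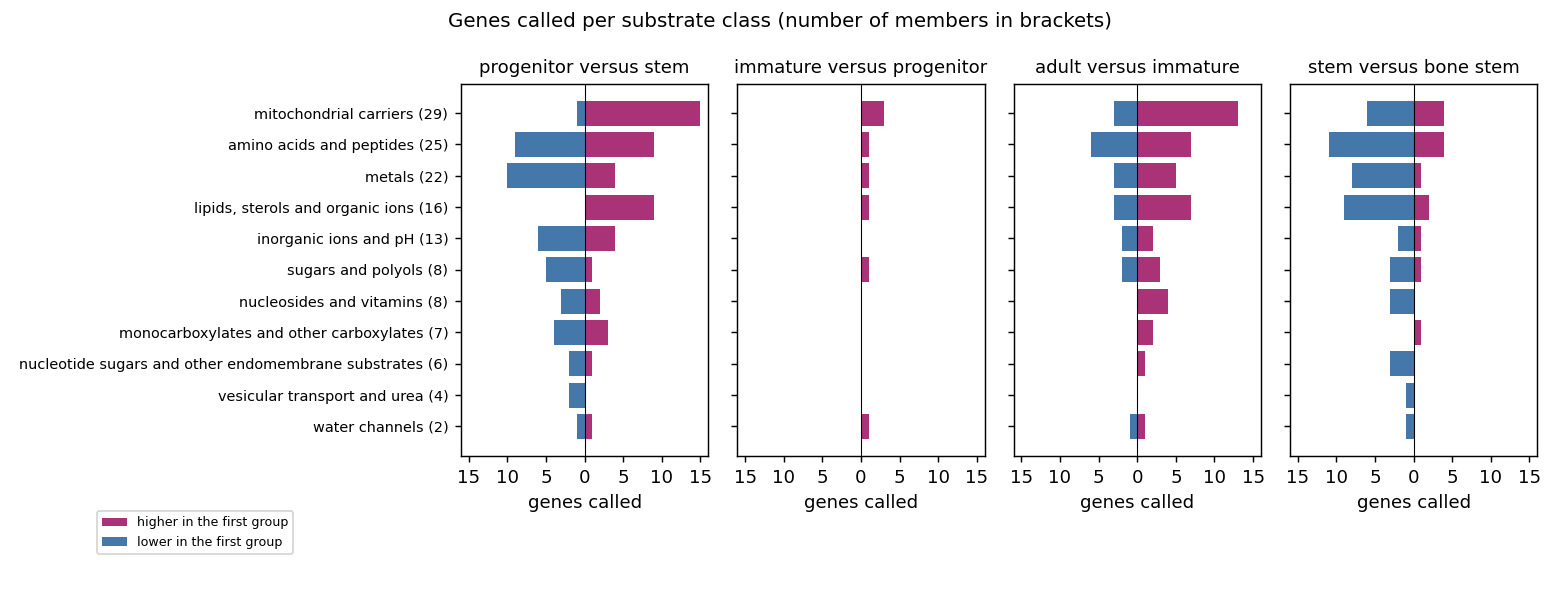
Number of genes called higher (right) and lower (left) in the first group named above each panel, by substrate class, with the number of members in brackets; the horizontal axis counts genes. Mitochondrial carriers had 15 higher and 1 lower in progenitor than stem Leydig cells and 13 higher and 3 lower in adult than immature cells, and metal carriers had 4 higher and 10 lower in the first step. Of genes at the level outside the comparison, 32.1% were higher and 25.6% lower in the first step. In the last step these shares were 15.8% and 22.8%. The class counts were not held to that condition.

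The group with the highest mean was adult for 48 members (34.3%), bone stem for 46 (32.9%), stem Leydig for 23, progenitor for 12 and immature for 11. Among all 7971 genes at this level, adult cells were highest for 25.0% and bone stem cells for 28.6%. A group mean of at least 100 was found in all 5 groups for 58 members, in 2 to 4 groups for 56 and in 1 group for 26. The members just inside the level were Slc22a3, Slc25a15 and Slc2a6, with highest group means of 104.2, 104.1 and 102.3, and the genes just outside were Slc25a18, Slc2a8 and Slc22a23 at 99.1, 98.1 and 95.9. In 26 members every stem Leydig and bone stem array lay above every array of the later stages, and in 30 members every one lay below. This pattern was not counted over other genes, so the counts describe the members alone. The ratio of the highest to the lowest group mean was under 1.5 in 15 members and at least 100 in 5 (Aqp1, Aqp9, Slc1a3, Slc25a21 and Slc47a1).

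**Figure D2:**
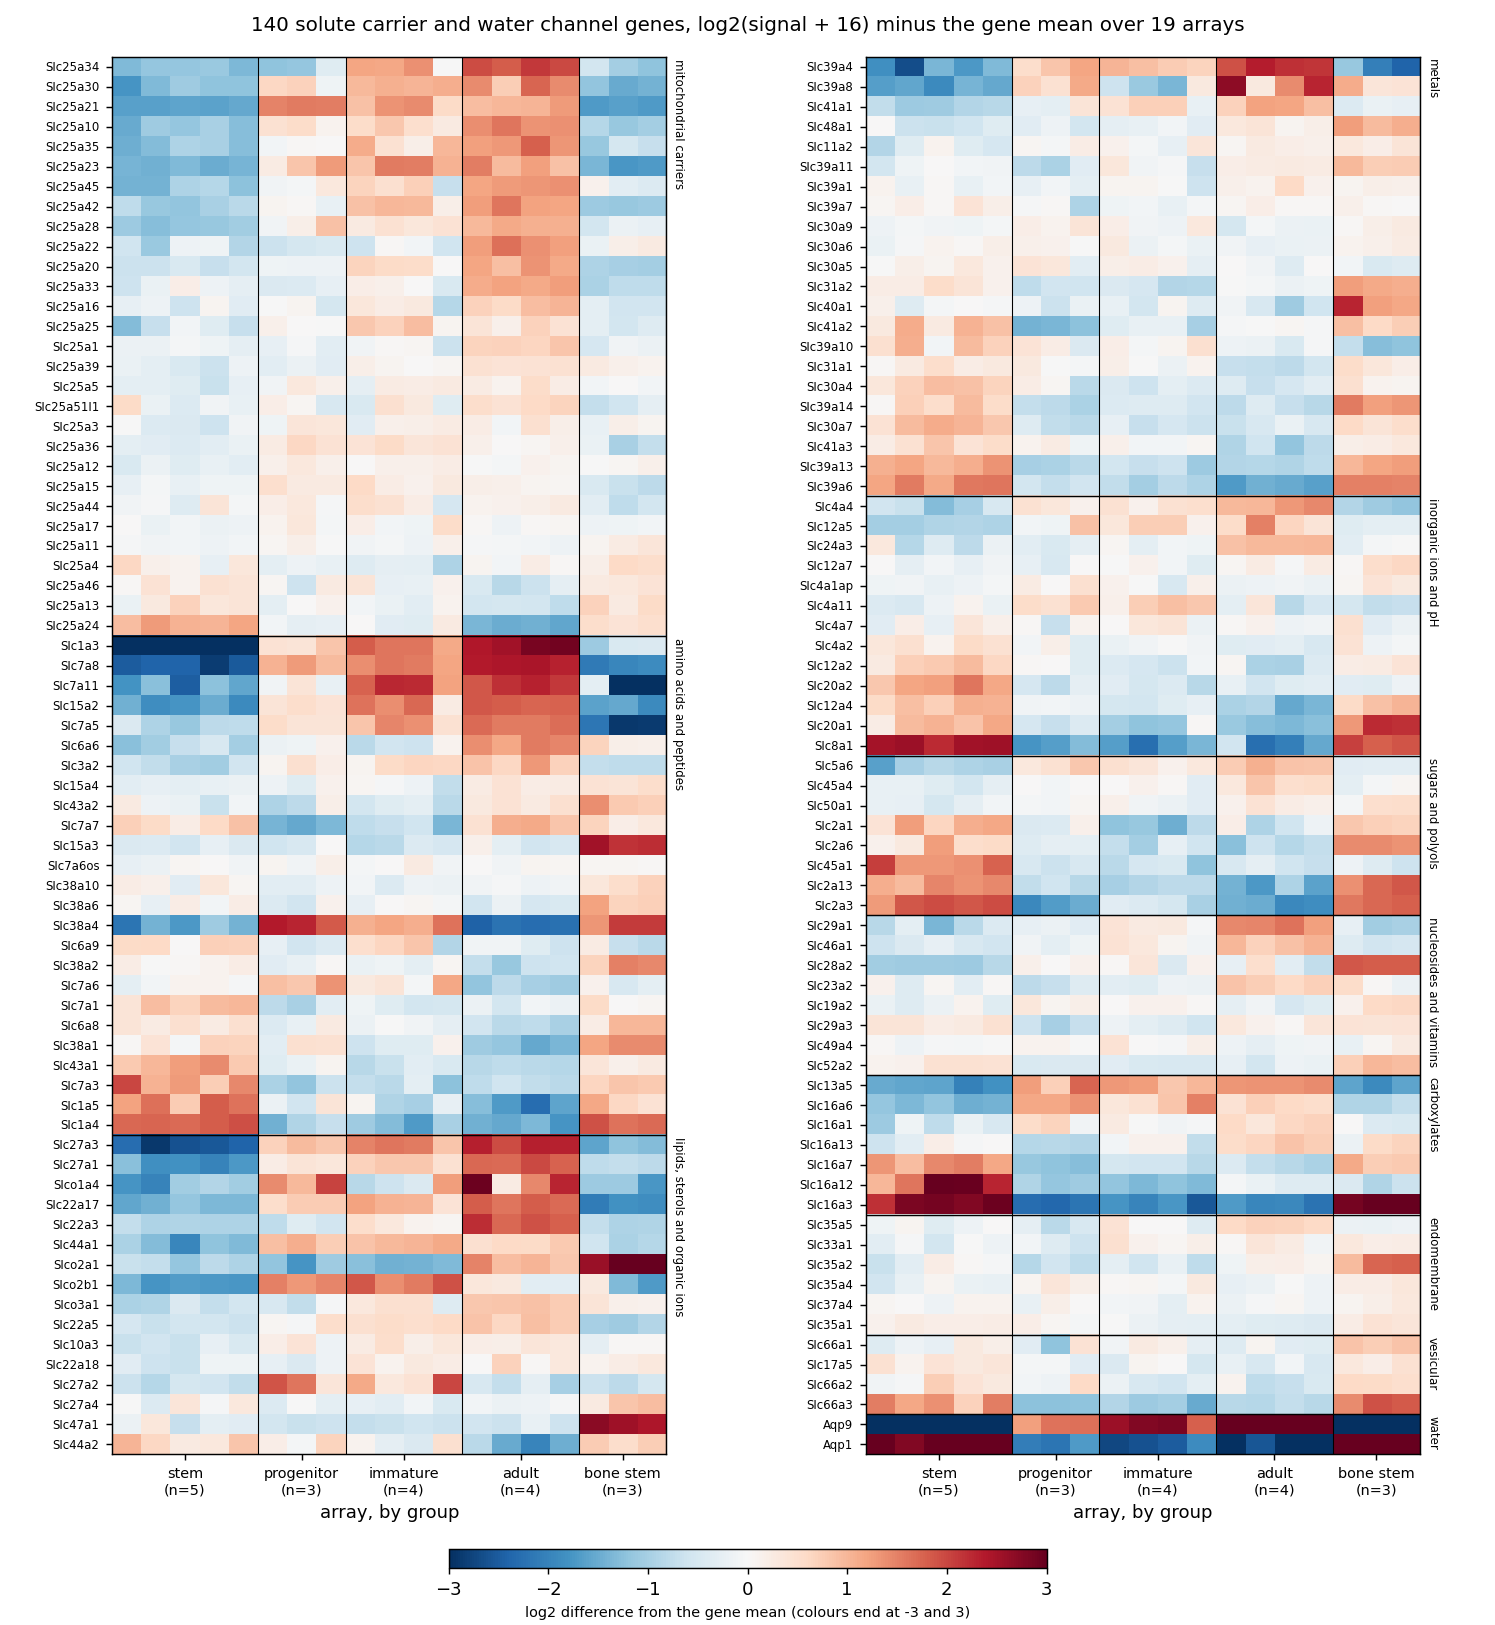
Each row is 1 of the 140 genes and each column 1 of the 19 arrays; colour is log2(signal + 16) minus the mean of that gene over all arrays, red above and blue below. Genes are grouped by substrate class and ordered within a class by adult minus stem level, and Aqp9 and Aqp1 at the foot of the right panel are at opposite ends of the scale in stem Leydig and adult cells.

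The promoters of both water channels are shown because these genes held the largest fall and the largest rise of the first step. RefSeq sequences on the GRCr8 build were matched by gene ID for 117 of the 140 members, each with 250 bases before and 50 bases after the annotated start. The 250 bases before the start of Aqp1 lie on the plus strand at chr4:85812534-85812783 and those of Aqp9 on the minus strand at chr8:80718189-80718438. They are printed 5′ to 3′ with TATAAA, the core of the TATA box, in capitals.
Aqp1: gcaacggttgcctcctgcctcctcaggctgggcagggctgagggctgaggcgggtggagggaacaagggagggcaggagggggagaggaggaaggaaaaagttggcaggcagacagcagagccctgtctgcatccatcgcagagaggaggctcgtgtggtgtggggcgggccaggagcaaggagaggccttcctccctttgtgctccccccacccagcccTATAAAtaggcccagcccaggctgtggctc
Aqp9: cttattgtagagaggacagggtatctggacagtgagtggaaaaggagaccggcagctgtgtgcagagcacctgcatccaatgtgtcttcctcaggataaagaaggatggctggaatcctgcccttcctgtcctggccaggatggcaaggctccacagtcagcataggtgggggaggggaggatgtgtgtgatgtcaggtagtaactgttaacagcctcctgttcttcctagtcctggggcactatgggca
Aqp1 held TATAAA with its first base 30 bases before the start, and Aqp9 held no match in this window. On either strand, TATAAA was in 8 of 117 member promoters (6.84%) and in 4760 of 33469 promoters of the same length (14.2%). The letters CAAGGTCA, bound by steroidogenic factor 1, were in 1 member promoter (0.855%, Slc30a6) against 1.52% of all promoters. TCACNCCAC, a form of the sterol regulatory element, was in 2 (1.71%, Slc25a24 and Slc46a1) against 1.12%; in Slc46a1 it overlaps the TGACGTCA described next. None of these letters and no TGACGTCA was found in either water channel promoter apart from the TATAAA of Aqp1.

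The cAMP response element TGACGTCA reads the same on both strands and is the site through which cAMP, the second messenger of luteinizing hormone, acts on many genes. It was in 5 of 117 member promoters (4.27%) and in 1.83% of all promoters. The windows below give those 5 matches in capitals, on the strand of the gene, to be read beside the values that follow. They lie at chr3:36116721-36116750 (minus strand), chr5:165503039-165503068 (minus), chr6:97723379-97723408 (plus), chr5:166412236-166412265 (minus) and chr10:63859383-63859412 (plus), in the order of the lines.
Slc25a25: tctgcaagcagTGACGTCAgtcctgatctt
Slc25a33: gccgcgccccgTGACGTCAcgaccctgcct
Slc38a6: tctgcggatggTGACGTCAtcactgttggc
Slc45a1: ggatgcagccgTGACGTCAcggccccgccc
Slc46a1: ggtgcctgaagTGACGTCAcaccacaggga
The match starts between 71 and 158 bases before the annotated start. These 5 genes did not share a pattern. Slc25a25 was higher in progenitor than stem Leydig cells (0.67 ± 0.22, adjusted p = 0.0182, and 0.0657 without progenitor replicate 1), Slc25a33 and Slc46a1 were brightest in adult cells, Slc38a6 was called in neither direction at any Leydig step, and Slc45a1 was at 89.8 to 165 in stem Leydig cells and at most 19.6 at every later stage. A match describes the letters of the window and is not a measured binding site.

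Both expressed water channels changed places at the first step. Aqp1, the classical water channel of epithelia, red cells and endothelium, had signals of 1561, 1153, 1452, 1464 and 1713 in stem Leydig cells and of 24.6, 21.5 and 37.0 in progenitor cells. It was lower still in immature (9.82, 11.9, 14.2, 30) and adult cells (3.92, 12.8, 2.67, 3.43), and highest in bone stem cells (2517, 3113, 2859). No array of a later stage came near those of either stem cell group. The first step changed by -5.09 ± 0.19 (adjusted p = 2.77e-14). The further change from immature to adult cells, -0.57 ± 0.18 (adjusted p = 0.0292), rested on signals mostly under 16 and was lost under 10 alternatives, among them a fit without immature replicate 4 (-0.39, adjusted p = 0.12).

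Aqp9, an aquaglyceroporin that passes glycerol and other small solutes as well as water, ran the other way. Its signals were 3.94, 1.53, 4.70, 4.91 and 13.6 in stem Leydig cells, 587, 772 and 789 in progenitor cells, 1502, 1754, 1791 and 876 in immature cells, and 2629, 2588, 3391 and 2876 in adult cells. Bone stem cells had 9.36, 1.87 and 9.33. Every stage of the lineage lay above the one before it with no overlap of arrays. The steps were 5.08 ± 0.21 (adjusted p = 1.31e-13), 0.99 ± 0.22 (adjusted p = 0.0246) and 0.99 ± 0.20 (adjusted p = 0.00113). The middle step was lost under 8 alternatives, with adjusted p up to 0.418 at a pseudocount of 1, and the last step at that pseudocount alone (0.0939).

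**Figure D3:**
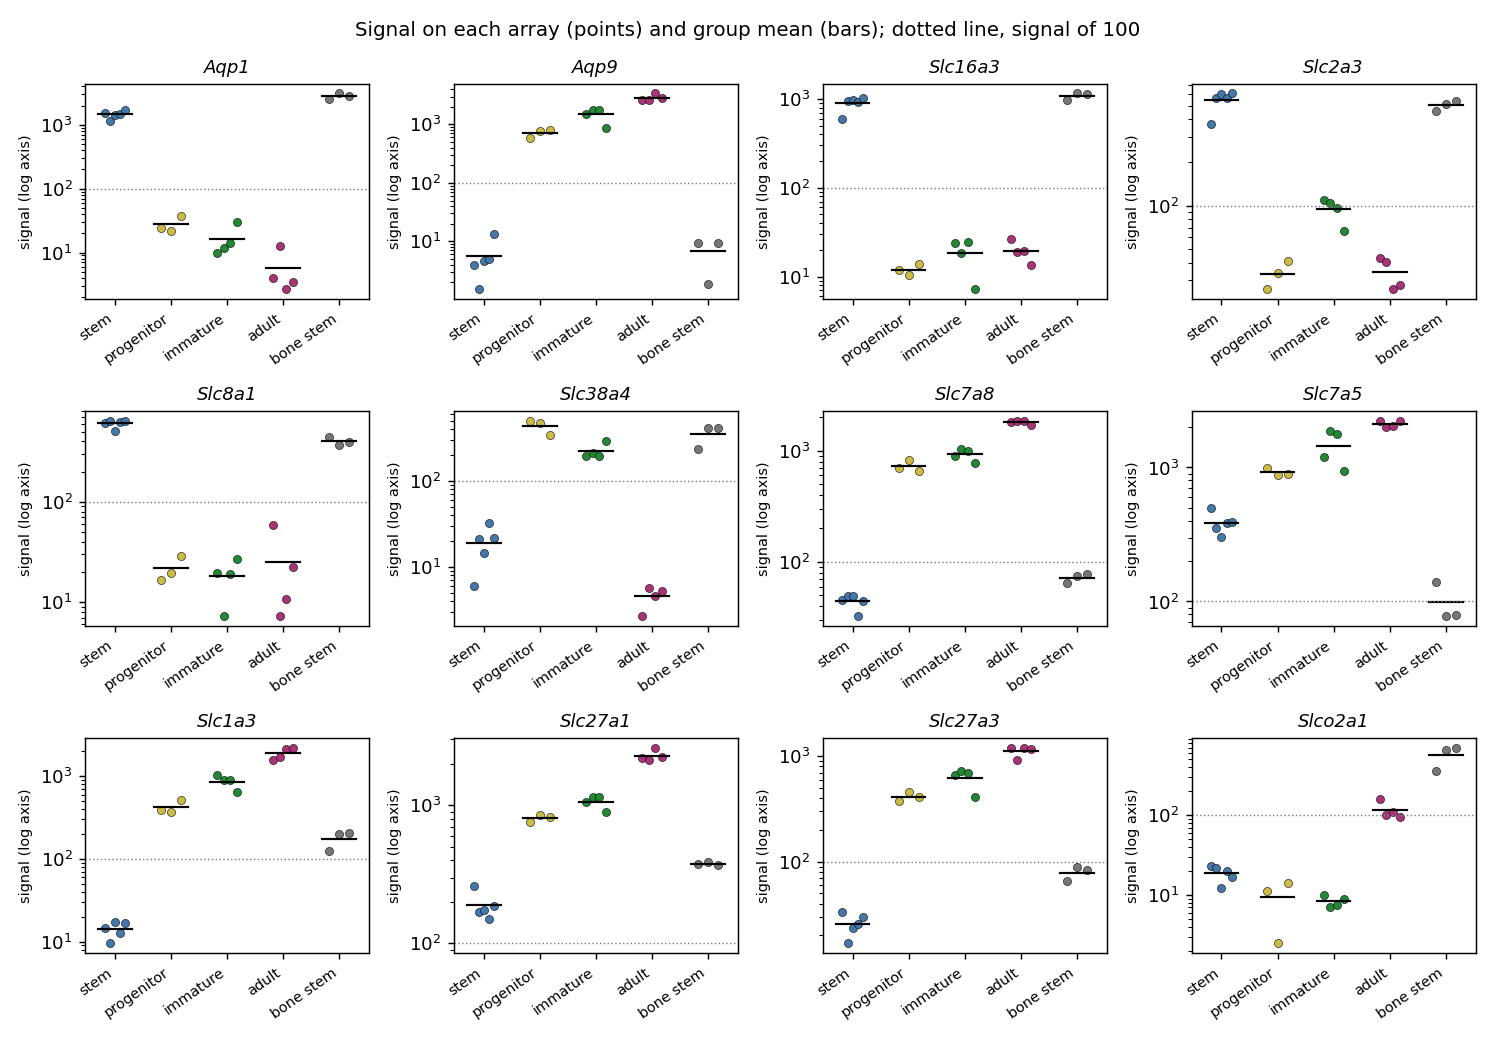
Signal of 12 members on each array (points, log axis) with the group mean (horizontal bars); the dotted line is the signal of 100 that chose the members. Aqp1, Slc16a3, Slc2a3 and Slc8a1 are high in both stem cell groups and low later, Aqp9, Slc7a8, Slc1a3, Slc27a1 and Slc27a3 are highest in adult cells, Slc7a5 is lowest in bone stem cells, and Slc38a4 is above 100 in progenitor, immature and bone stem cells.

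Amino acid carriers were evenly divided at the first step, with 9 of 25 members higher and 9 lower in progenitor cells, and 7 higher and 6 lower in adult than immature cells. The heteromeric exchangers were among those that changed, in both directions. Slc3a2 encodes the heavy chain that carries several light chains to the membrane. Its signals were 1272, 1152, 979, 922 and 1278 in stem Leydig cells, 2023, 2707 and 2224 in progenitor cells, 2026 to 2997 in immature and 2973 to 4737 in adult cells, so that the stem Leydig arrays lay below all later ones. It rose by 1.04 ± 0.17 at the first step (adjusted p = 5.16e-05), and neither later step was called.

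Of its light chains, Slc7a8 and Slc7a5 exchange large neutral amino acids. Slc7a8 went from 45.4, 49.5, 49.4, 32.4 and 44.4 in stem Leydig cells to 703, 825 and 653 in progenitor cells, 900, 1048, 1002 and 777 in immature cells and 1801, 1861, 1869 and 1715 in adult cells. It changed by 3.63 ± 0.12 at the first step (adjusted p = 8.67e-15) and by 0.96 ± 0.12 at the last (adjusted p = 6.86e-06). Slc7a5 had 495, 351, 300, 388 and 393 in stem Leydig cells, 991, 886 and 889 in progenitor, 1208, 1883, 1787 and 935 in immature, 2240, 2012, 2035 and 2209 in adult and 139, 77.5 and 79.1 in bone stem cells. The stem Leydig arrays lay below all later arrays and above all bone stem arrays. Slc7a5 rose by 1.24 ± 0.20 at the first step (adjusted p = 5.69e-05). The last step (0.60 ± 0.20, adjusted p = 0.0357) was lost under 10 alternatives, with adjusted p up to 0.274 under quantile normalization.

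Slc7a11, the cystine and glutamate exchanger that feeds glutathione synthesis, was at 109, 167, 61.8, 170 and 132 in stem Leydig cells and at 387, 551 and 358 in progenitor cells. Immature cells had 1474, 2054, 2044 and 995 and adult cells 1571, 1968, 2127 and 1881. The first step was called (1.68 ± 0.52, adjusted p = 0.015), though not without progenitor replicate 2 (adjusted p = 0.0685), and the second was not (1.85 ± 0.55, adjusted p = 0.113) although the arrays did not overlap. Bone stem cells were uneven, at 336, 14.5 and 19.7.

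The light chains that exchange cationic for neutral amino acids crossed over. Slc7a6 was at 187 to 254 in stem Leydig cells, 450, 424 and 619 in progenitor, 291, 313, 224 and 543 in immature and 94.5, 129, 110 and 103 in adult cells. It rose by 1.06 ± 0.21 (adjusted p = 0.000349) at the first step and fell at the last (-1.46 ± 0.20, adjusted p = 2.06e-05). Slc7a7 did the reverse, from 113 to 186 in stem Leydig cells to 26.1, 22.1 and 27.4 in progenitor cells and back to 135, 218, 226 and 180 in adult cells. Its changes were -2.02 ± 0.19 (adjusted p = 3.62e-08) and 1.73 ± 0.18 (adjusted p = 9.65e-07).

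Glutamate and neutral amino acid carriers of the Slc1 family moved in opposite directions. Slc1a3, a glial-type glutamate and aspartate transporter, went from 14.4, 9.49, 17.0, 12.9 and 16.6 in stem Leydig cells to 387, 373 and 513 in progenitor cells, 1026, 894, 892 and 638 in immature cells and 1562, 1699, 2135 and 2211 in adult cells. Bone stem cells had 123, 201 and 205. The 3 steps were 3.86 ± 0.18 (adjusted p = 7.22e-13), 0.99 ± 0.18 (adjusted p = 0.00793) and 1.13 ± 0.17 (adjusted p = 5.89e-05). The middle step was not called without progenitor replicate 2 (adjusted p = 0.0646). A dimmer probe set of Slc1a3 (highest group mean 68.6) went the other way at the first step (-1.37, called), while another rose with the brightest one (1.73, called), so the direction of this gene depends on the probe set. Slc1a4 and Slc1a5, carriers of alanine, serine, cysteine and glutamine, were lower in progenitor cells. Slc1a4 had 214 to 254 in stem Leydig cells and 10.1, 22.0 and 28.1 in progenitor cells (-2.79 ± 0.18, adjusted p = 1.37e-10). Slc1a5 fell at the first step by 1.54 on the log2 scale, and again at the last, from 48.9 to 121 in immature cells to 10.5 to 37.9 in adult cells (-1.19 ± 0.28, adjusted p = 0.00409).

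The sodium-coupled neutral amino acid transporter Slc38a4 rose and then fell. Stem Leydig cells had 5.99, 21.3, 14.3, 32.0 and 21.6, progenitor cells 499, 469 and 339, immature cells 193, 209, 195 and 292, and adult cells 2.66, 5.64, 4.58 and 5.27. Bone stem cells had 232, 408 and 409. No stem Leydig or adult array reached the lowest of the middle stages or of bone stem cells. The changes were 3.72 ± 0.22 at the first step (adjusted p = 4.46e-11), -3.52 ± 0.22 at the last (adjusted p = 9.54e-10) and -3.39 ± 0.22 between stem Leydig and bone stem cells (adjusted p = 6.88e-10).

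Among the other amino acid carriers, the taurine transporter Slc6a6 was highest in adult cells (1309, 1095, 1452 and 1365, against 269, 319, 309 and 523 in immature cells), a change of 1.87 ± 0.19 (adjusted p = 4.79e-07). The peptide transporter Slc15a2 was at 1.07 to 7.54 in stem Leydig cells and 67.0 to 76.0 in progenitor cells (2.13 ± 0.24, adjusted p = 4.31e-07). The cationic amino acid carrier Slc7a1 was lower in progenitor than stem Leydig cells (-1.48 ± 0.18, adjusted p = 9.86e-07), and its relative Slc7a3 had 63.9 to 178 in stem Leydig cells and 5.28 to 15 in progenitor cells. The creatine transporter Slc6a8 fell at the first and the last step (-0.50 ± 0.17 and -0.63 ± 0.16). The first of these was not called without progenitor replicate 1 (-0.35, adjusted p = 0.16), progenitor replicate 2 (adjusted p = 0.0925) or stem replicate 5 (adjusted p = 0.0522). The last was not kept under every alternative, and a dimmer probe set was not called there (-0.25).

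**Figure D4:**
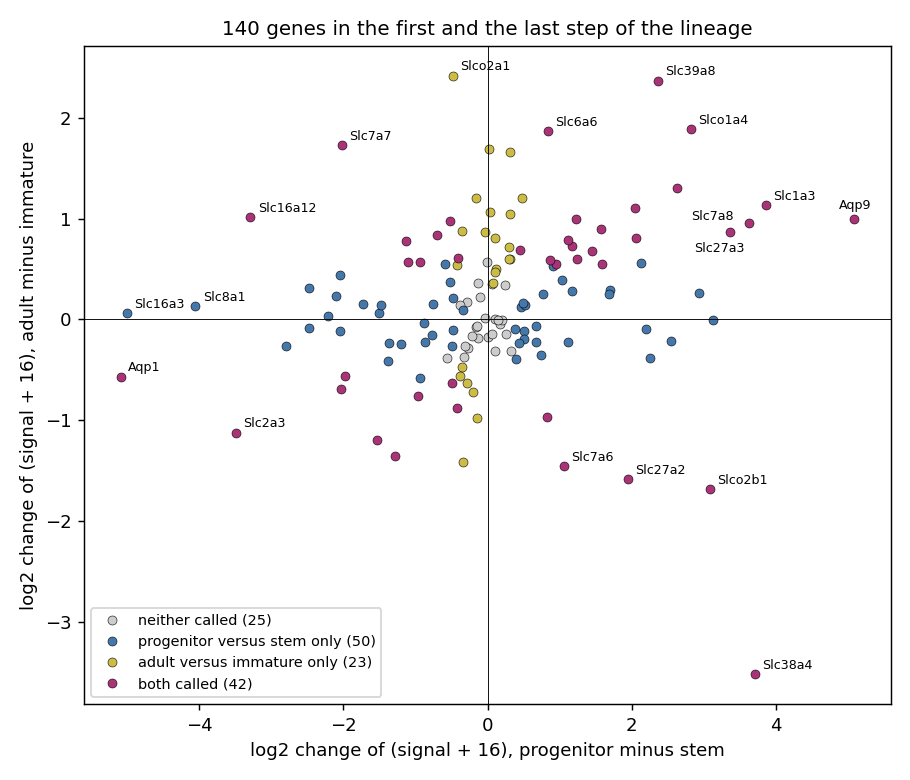
Log2 change of (signal + 16) from stem Leydig to progenitor cells (horizontal) against the change from immature to adult cells (vertical) for each of the 140 genes, coloured by which step was called; the steps share no arrays. Both steps were called in 42 members, a count that was not made over other genes and describes the members alone. Slc38a4 and Slco2b1 lie far to the lower right while Slc7a7 and Slc16a12 lie to the upper left.

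The carriers of lactate and glucose that were bright in both stem cell groups fell at the first step. Slc16a3 encodes a lactate exporter typical of glycolytic cells. Its signals were 602, 946, 983, 924 and 1031 in stem Leydig cells and 972, 1157 and 1153 in bone stem cells, and between 7.22 and 26.2 on every progenitor, immature and adult array. The first step changed by -5.01 ± 0.19 (adjusted p = 3.07e-14). Slc16a7, a higher-affinity monocarboxylate carrier, followed it, from 139 to 219 in stem Leydig cells to 17.4 to 21.0 in progenitor cells (-2.48 ± 0.16, adjusted p = 1.12e-10). Slc16a1, the widespread lactate and pyruvate carrier, went up instead, from 150, 303, 193, 289 and 235 to 502, 544 and 313 (0.91 ± 0.20, adjusted p = 0.00103), and had 429 to 555 in adult cells.

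Other carboxylate carriers split in the same way. Slc13a5, the sodium-coupled citrate transporter, was at 9.63 to 20.6 in stem Leydig cells and at 155 to 330 on all progenitor and immature arrays (2.93 ± 0.18, adjusted p = 9.29e-11), and stayed at 242 to 263 in adult cells. Slc16a6 also rose (2.54 ± 0.19, adjusted p = 1.56e-09). Slc16a12, linked to creatine transport, was uneven among the stem Leydig arrays (84.6, 137, 506, 382 and 231) and lay between 3.71 and 32.7 at all later stages. In all, 3 of the 7 members of the class were higher and 4 lower at the first step. These are 42.9% and 57.1%, beside 32.1% and 25.6% of genes at the level outside the comparison. This class was not held to that condition, and Slc16a12, among the lower, reached the level in stem Leydig cells alone.

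Of the sugar and polyol class, 5 of 8 members were lower in progenitor than stem Leydig cells and 1 was higher. Slc2a1, the glucose carrier found in most cells, was at 397, 732, 468, 644 and 684 in stem Leydig cells, 215, 219 and 332 in progenitor cells and 118, 126, 97.8 and 166 in immature cells. The first step changed by -1.14 ± 0.23 (adjusted p = 0.000539). Slc2a3, a high-affinity glucose carrier, went from 373, 565, 606, 568 and 607 to 26.1, 33.6 and 40.7 in progenitor cells, then to 110, 104, 95.5 and 65.9 in immature and 43.2, 40.6, 26.1 and 27.6 in adult cells. Its changes were -3.49 ± 0.18 (adjusted p = 2.99e-12), 1.14 ± 0.18 (adjusted p = 0.00214) and -1.12 ± 0.17 (adjusted p = 6.06e-05). The bump in immature cells was not called in the mean over all probe sets of the gene (0.67, adjusted p = 0.137) or in the fit of those groups alone (adjusted p = 0.113). Slc2a13, a proton-coupled inositol carrier, was at 92.2 to 139 in stem Leydig cells and 15.5 to 21.2 in progenitor cells (-1.98 ± 0.18, adjusted p = 2.86e-08). The member that rose was Slc5a6, placed here by its family, which carries the vitamins biotin and pantothenate: 44.5 to 89.2 became 218, 240 and 311 (1.60 ± 0.16, adjusted p = 6.85e-08).

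Carriers of lipids and organic ions had 9 of 16 members higher and 0 lower in progenitor than stem Leydig cells. At an unadjusted p under 0.05 in limma's test, 9 were higher and 2 lower. The background for this step was 32.1% higher and 25.6% lower among genes at the level outside the comparison, beside 56.2% of this class higher. The class was not held to that condition, and Slc27a2, among the higher, reached 100 in progenitor cells alone. The fatty acid transport proteins Slc27a1 and Slc27a3, which take up long-chain fatty acids and activate them with coenzyme A, rose at both ends of the lineage. Slc27a1 had 262, 169, 174, 151 and 187 in stem Leydig cells, 763, 849 and 829 in progenitor cells, 1058, 1150, 1141 and 901 in immature cells and 2188, 2128, 2613 and 2244 in adult cells, so that no arrays of successive stages overlapped. Its first step was 2.04 ± 0.14 (adjusted p = 2.43e-10) and its last 1.10 ± 0.13 (adjusted p = 4.56e-06). Slc27a3 went from 16.8 to 33.6 in stem Leydig cells to 374, 453 and 411 in progenitor cells and 1201, 928, 1202 and 1176 in adult cells, with changes of 3.37 ± 0.17 (adjusted p = 2.84e-12) and 0.86 ± 0.16 (adjusted p = 0.000599). Slc27a2, a liver-type member that also activates bile acids and very long chain fatty acids, was at 178, 142 and 51.7 in progenitor and 99.8, 48.9, 54.3 and 194 in immature cells and at 10.2 to 27.3 in adult cells (-1.59 ± 0.32, adjusted p = 0.00101). It was uneven within both middle stages.

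Several carriers of this class were brightest in adult cells. Slc22a17, a receptor for iron-binding lipocalin, rose from 128 to 174 in stem Leydig cells to 597 to 709 in progenitor and 1283 to 1483 in adult cells, with both steps called (2.06 ± 0.15, adjusted p = 5.06e-10, and 0.81 ± 0.14, adjusted p = 0.000266). Slc22a3, a carrier of organic cations such as monoamines, lay under 9 in stem Leydig and progenitor cells, at 16.8 to 29.4 in immature cells and at 132, 89.0, 102 and 93.7 in adult cells. Its step from progenitor to immature cells was called (0.81 ± 0.16, adjusted p = 0.0104), but not without progenitor replicate 1 (adjusted p = 0.0696). The carnitine carrier Slc22a5 rose at the first step (0.76 ± 0.13, adjusted p = 5.98e-05). The choline carriers differed: Slc44a1 rose from 98.1 to 211 to 718 to 927 (2.26 ± 0.16, adjusted p = 7.2e-10), and Slc44a2 fell at the last step from 231 to 450 to 68.1 to 174 (-1.41 ± 0.23, adjusted p = 0.000164).

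The organic anion carriers each had a profile of their own. Slco2a1, which takes up prostaglandins, was at 12.1 to 23.2 in stem Leydig cells, at most 14.0 in progenitor and immature cells, 158, 102, 110 and 94.0 in adult cells and 358, 649 and 701 in bone stem cells. It rose by 2.42 ± 0.21 at the last step (adjusted p = 5.87e-08) and differed by -4.03 ± 0.21 between stem Leydig and bone stem cells (adjusted p = 3.58e-11). Slco2b1, a carrier of steroid sulfates, was high in the middle stages: 209, 178 and 202 in progenitor and 268, 191, 216 and 280 in immature cells, against 6.93 to 14.7 in stem Leydig and 83.3, 79.7, 47.1 and 47.0 in adult cells. Its first step was 3.09 ± 0.30 (adjusted p = 5.54e-08) and its last -1.69 ± 0.29 (adjusted p = 0.000236). Slco3a1 rose slowly, from 61.4 to 94.3 in stem Leydig cells to 236 to 258 in adult cells, and its last step (0.60 ± 0.18, adjusted p = 0.0205) was not called without immature replicate 4 (adjusted p = 0.0839) or adult replicate 3 (adjusted p = 0.0527).

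Slco1a4, Slc39a8 and Slc2a1 varied between arrays of 1 group together with the endothelial markers. Slco1a4 carries organic anions across the blood-brain barrier, and Slc39a8 imports zinc and manganese. In adult replicates 1 to 4 the endothelial sum was 3279, 644, 1276 and 2197. Slco1a4 was 700, 94.7, 235 and 435 on the same arrays, Slc39a8 was 1158, 207, 477 and 878, and Slc2a1 was 344, 148, 189 and 264, in the same order each time. Among immature arrays, replicate 4 had the highest endothelial sum (935 against 327 to 420) and the highest Slco1a4 (205 against 36.5 to 52.7), Slc39a8 (210 against 54.8 to 103) and Slc2a1 (166 against 97.8 to 126). The adult order was not particular to these genes, and the members that share it were not counted. Slc8a1 (59.1, 7.23, 10.8 and 22.5) and Slc7a5 (2240, 2012, 2035 and 2209) had it too. In immature replicate 4, Slc8a1 was highest and Slc7a5 lowest of the immature arrays.

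All 10 measured endothelial markers had group means of at least 16 in the 3 later stages, while 7 of 10 lay under 16 in stem Leydig cells. Slco1a4 was called at the first step (2.82 ± 0.49, adjusted p = 0.000105) and the last (1.88 ± 0.48, adjusted p = 0.00662), as was Slc39a8 (2.36 ± 0.40, adjusted p = 8.13e-05, and 2.37 ± 0.39, adjusted p = 0.000146). The rise of Slc2a1 at the last step (0.78 ± 0.22, adjusted p = 0.0167) was not called without adult replicate 1 (0.58, adjusted p = 0.0758), without adult replicate 4 (adjusted p = 0.0579) or without immature replicate 3 (adjusted p = 0.0586). The part of the endothelial markers in these results was not tested. Slc39a8 and Slc2a1 were also bright where the sum was low: Slc39a8 was 219 to 380 in bone stem cells, and Slc2a1 was 397 to 732 in stem Leydig cells.

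**Figure D5:**
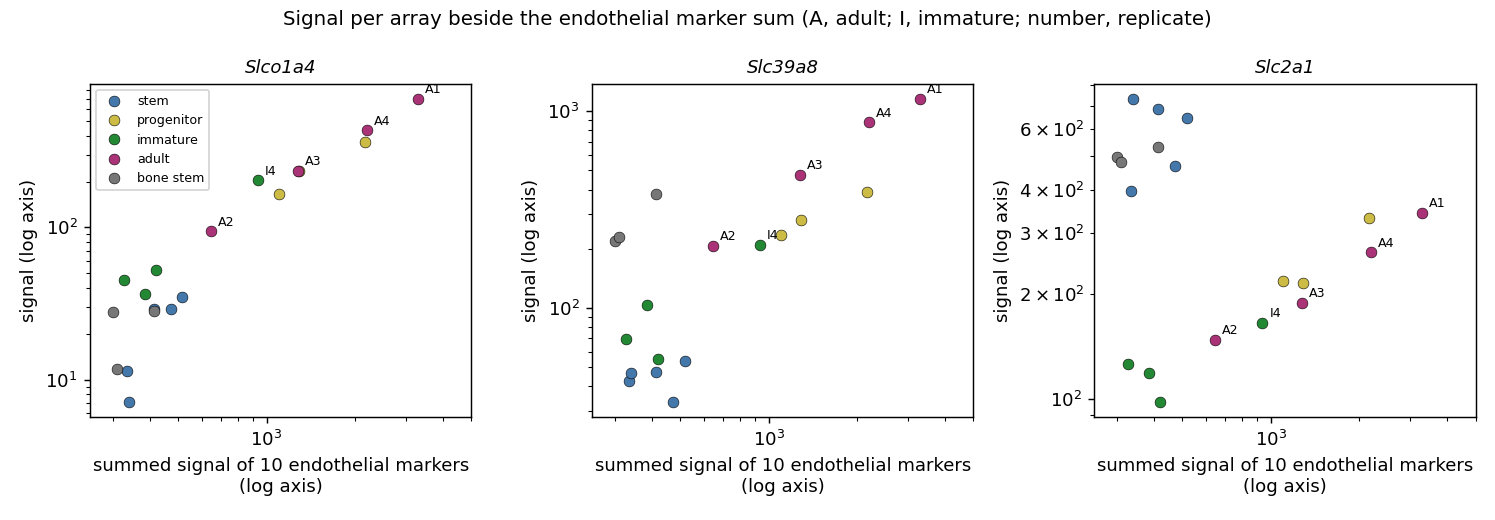
Signal of Slco1a4, Slc39a8 and Slc2a1 on each array against the summed signal of 10 endothelial markers on that array, both on log axes, with colours for groups. The 4 adult arrays (A1 to A4) stand in the same order on both axes in all 3 panels, and immature replicate 4 (I4) stands above the other immature arrays.

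Ion carriers had 4 of 13 members higher and 6 lower at the first step (30.8% and 46.2%). Of genes at the level outside the comparison, 32.1% were higher and 25.6% lower. Ion carriers were not held to that condition, and Slc20a2, among the lower, reached the level in stem Leydig cells alone. The largest change was that of Slc8a1, the sodium and calcium exchanger of the plasma membrane, at 610, 647, 514, 628 and 635 in stem Leydig cells and 16.7, 19.4 and 29.1 in progenitor cells (-4.05 ± 0.27, adjusted p = 1.78e-10). No later array passed 59.1, and bone stem cells had 443, 372 and 399. The phosphate carriers went the same way. Slc20a1 had 780, 1310, 1387, 1229 and 1516 in stem Leydig cells and 463, 410 and 497 in progenitor cells (-1.39 ± 0.26, adjusted p = 0.0002). Slc20a2 had 227 to 406 and 63.7 to 98.5. Of the chloride cotransporters, Slc12a2 and Slc12a4 were lower in progenitor cells (-0.78 ± 0.20 and -0.97 ± 0.16), while Slc12a5, known best from neurons, rose from 21.8 to 25.7 to 54.2 to 126 (1.18 ± 0.24, adjusted p = 0.000511).

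Slc4a4 and Slc24a3 differed from these in being brightest in adult cells. Slc4a4, a sodium and bicarbonate cotransporter, rose from 16 to 40.7 in stem Leydig cells to 71.2 to 91.9 in progenitor cells (1.12 ± 0.18, adjusted p = 4.41e-05), and adult cells had 139 to 199. Slc24a3, a potassium-dependent sodium and calcium exchanger, had 167 to 221 in immature and 397, 426, 425 and 435 in adult cells (1.06 ± 0.18, adjusted p = 0.000233). Slc4a11 rose and then fell (0.83 ± 0.22 and -0.97 ± 0.21).

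Of 22 metal carriers, 10 were lower and 4 higher at the first step. These are 45.5% and 18.2%, beside 25.6% and 32.1% of genes at the level outside the comparison, a difference that was not tested. The zinc importers Slc39a6 and Slc39a13 and the zinc and iron importer Slc39a14 were among those that fell. Slc39a6 went from 331 to 457 in stem Leydig cells to 80.2 to 90.9 in progenitor cells and 32.5 to 42.1 in adult cells (-2.03 ± 0.13, adjusted p = 6.93e-11, and -0.69 ± 0.12, adjusted p = 0.000278). Its call at the last step was not kept under every alternative, and dimmer probe sets were not called there (-0.10 and -0.07). Slc39a13 went from 593 to 773 to 139 to 159 (-2.05 ± 0.12, adjusted p = 4.62e-11), and bone stem cells had 598 to 721. Slc39a14 changed by -1.37 ± 0.16 (adjusted p = 7.38e-07).

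The zinc exporter Slc30a7, which loads the early secretory pathway, fell too (-1.51 ± 0.16, adjusted p = 1.9e-07). Another zinc importer, Slc39a4, ran against these. It was at 3.02 to 32.2 in stem Leydig cells, 159 to 260 in progenitor cells and 436, 603, 534 and 521 in adult cells (2.64 ± 0.27, adjusted p = 1.26e-07, and 1.31 ± 0.26, adjusted p = 0.00101). The call of Slc39a4 at the last step was not kept under every alternative. Slc39a1 differed by less than the spread required for a call at every step, at 853 to 1075 in stem Leydig cells and 1068 to 1501 in adult cells.

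Magnesium carriers of the Slc41 family differed from each other. Slc41a1 rose at the first and the last step (0.87 ± 0.20, adjusted p = 0.00145, and 0.59 ± 0.19, adjusted p = 0.0316). Its last step was not called without immature replicate 4 (0.38, adjusted p = 0.131) or without adult replicate 2, 3 or 4 (adjusted p from 0.0514 to 0.0956). Slc41a2 fell from 191 to 357 in stem Leydig cells to 48.2, 50.7 and 56.9 in progenitor cells (-2.05 ± 0.20, adjusted p = 4.09e-08). It stood at 118, 130, 131 and 70.0 in immature cells, a rise of 0.89 ± 0.20 (adjusted p = 0.0326) that was lost under 11 alternatives, with adjusted p from 0.0608 to 0.132 when 1 progenitor array was left out. The copper importer Slc31a1 fell at the last step, from 315 to 408 to 199 to 238 (-0.71 ± 0.12, adjusted p = 0.000233). That call was not kept under every alternative, and dimmer probe sets of the gene were not called (-0.03 and -0.39). The iron exporter Slc40a1 stayed between 6.31 and 35.8 on every Leydig array and had 213, 92.9 and 87.9 in bone stem cells.

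Mitochondrial carriers made up the largest class. Of 29 members, 15 were higher and 1 lower in progenitor than stem Leydig cells, and 13 were higher and 3 lower in adult than immature cells, with 13 not called in each of these comparisons. The shares called higher were 51.7% and 44.8%, where 32.1% and 15.8% of genes at the level outside the comparison were. The class was not held to that condition, and the difference between it and other genes was not tested. Slc25a21, called higher at the first step, reached 100 in progenitor cells alone. Of those called higher at the last step, Slc25a16, Slc25a33, Slc25a34 and Slc25a35 reached 100 in adult cells alone. Slc25a42, also called there, reached it only in immature and adult cells. The median change of the class at the first step was 0.46, against 0.08 over all probe sets. Slc25a20, which brings acylcarnitines into the mitochondrion for fatty acid oxidation, rose at every step: 202 to 242 in stem Leydig cells, 301 to 307 in progenitor, 342 to 543 in immature and 785, 651, 881 and 766 in adult cells. The steps were 0.46 ± 0.13 (adjusted p = 0.00877), 0.60 ± 0.14 (adjusted p = 0.0314) and 0.69 ± 0.13 (adjusted p = 0.000439), without overlap of arrays. The first-step call of Slc25a20 was not kept under every alternative. The middle step of Slc25a20 was not called under 9 alternatives, among them leaving out any 1 progenitor array (adjusted p from 0.079 to 0.115). Slc25a42, the carrier of coenzyme A, rose at the first 2 steps (0.95 ± 0.17, adjusted p = 0.000159, and 0.78 ± 0.18, adjusted p = 0.0315) and reached 240 to 324 in adult cells. Its second step was likewise lost under 9 alternatives, with adjusted p from 0.0691 to 0.119 when 1 progenitor array was left out.

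Carriers of metabolites and of iron followed. The dicarboxylate carrier Slc25a10 had 29.2 to 49.3 in stem Leydig cells, 122 to 173 in progenitor cells and 308 to 377 in adult cells (1.58 ± 0.15, adjusted p = 3.28e-08, and 0.90 ± 0.14, adjusted p = 9.99e-05). The iron carrier Slc25a28 had 96.1 to 116, 236 to 488 and 520 to 579 in the same groups (1.46 ± 0.16, adjusted p = 2.55e-07, and 0.68 ± 0.15, adjusted p = 0.00276). Slc25a21, the oxoadipate carrier, was under 3 on every stem Leydig and bone stem array and at 137, 143 and 141 in progenitor cells. Slc25a30 rose at the first step from 138 to 232 to 461 to 822 (1.70 ± 0.20, adjusted p = 1.11e-06).

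Other members rose late. The citrate carrier Slc25a1, whose substrate supplies acetyl groups for cholesterol and fatty acid synthesis in the cytosol, was at 445 to 544 in progenitor, 350 to 583 in immature and 893, 904, 881 and 1005 in adult cells (0.87 ± 0.14, adjusted p = 8.72e-05). The glutamate carrier Slc25a22 was at 111 to 183 in immature cells and 446, 599, 490 and 439 in adult cells (1.69 ± 0.20, adjusted p = 4.08e-06). Slc25a34, an orphan carrier, lay under 20 before the immature stage, where it was 85.2, 83.9, 98.9 and 27.9 (1.83 ± 0.27, adjusted p = 0.00103), and at 141 to 178 in adult cells. Without immature replicate 4 that step was 2.15 (adjusted p = 5.33e-06), and in the fit of those groups alone the adjusted p was 0.127.

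The abundant carriers of oxidative phosphorylation moved little. The phosphate carrier Slc25a3 had 1812 to 2762 in stem Leydig and 2646 to 3897 in adult cells, and its first step (0.52 ± 0.18, adjusted p = 0.0292) was lost under 8 alternatives, among them median centring (0.29, adjusted p = 0.242) and the fits without progenitor replicate 2 (adjusted p = 0.129) or 3 (0.117). The ADP/ATP carrier Slc25a5 rose at the first step by 0.49 ± 0.15 (adjusted p = 0.0136), and its heart-type relative Slc25a4 rose at the last by 0.54 ± 0.17 (adjusted p = 0.0284). The first of these calls was lost without progenitor replicate 2 (adjusted p = 0.0881), and the second without immature replicate 4 (0.39, adjusted p = 0.113) or without adult replicate 1, 3 or 4 (adjusted p from 0.057 to 0.0847). One mitochondrial carrier fell at the first and the last step. Slc25a24, which exchanges ATP-magnesium for phosphate, went from 809, 1025, 867, 856 and 958 in stem Leydig cells to 393, 341 and 347 in progenitor cells and 151, 137, 144 and 132 in adult cells (-1.29 ± 0.13, adjusted p = 9.2e-08, and -1.36 ± 0.13, adjusted p = 1.62e-07).

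Nucleoside and vitamin carriers had 4 of 8 members higher and 0 lower in adult than immature cells, and 2 lower at an unadjusted p under 0.05. Among genes at the level outside the comparison, 15.8% were higher and 22.8% lower, and the difference was not tested. These carriers were not held to that condition, and Slc46a1, among the higher, reached the level in adult cells alone. The equilibrative nucleoside carrier Slc29a1 had 639 to 875 in immature and 1802, 1846, 2052 and 1544 in adult cells (1.21 ± 0.20, adjusted p = 0.000138). The ascorbate carrier Slc23a2 fell and then rose (-0.53 ± 0.16, adjusted p = 0.0119, and 0.98 ± 0.15, adjusted p = 8.33e-05), and its adult signals were 248 to 302. The fall was not called without progenitor replicate 1 (-0.45, adjusted p = 0.0647). Slc46a1, the folate carrier, was at 28.2 to 41.2 in stem Leydig and 92.4 to 122 in adult cells.

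Of the vesicular members, 2 of 4 were lower at the first step, where 25.6% of genes at the level outside the comparison were. Slc66a3, a lysosomal PQ-loop family member, had 1678, 1277, 1486, 920 and 1663 in stem Leydig cells, 232, 231 and 235 in progenitor cells and 1546, 2175 and 2073 in bone stem cells (-2.48 ± 0.17, adjusted p = 3.85e-10). The 6 nucleotide sugar and related carriers had 1 higher and 2 lower at the first step (16.7% and 33.3%), beside 32.1% and 25.6% of such genes. Slc35a1, the CMP-sialic acid carrier, was called at no step. A pair of symbols fit the naming rule without being carriers. Slc4a1ap, named as an adaptor of the anion exchanger Slc4a1, lay between 86.2 and 185. It is among the 49 members called higher at the first step (0.38 ± 0.14, adjusted p = 0.0398). That call was lost under 10 alternatives, among them the fit without progenitor replicate 3 (adjusted p = 0.218). Slc7a6os, encoded opposite Slc7a6, lay between 111 and 167 and was not called.

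Several members were bright in bone stem cells alone. Slc15a3, a lysosomal peptide and histidine carrier of phagocytes, was at 218, 168 and 177 in bone stem cells and under 30 on all other arrays. The organic cation exporter Slc47a1 was at 159, 139 and 128 against at most 18.1 elsewhere, and the concentrative nucleoside carrier Slc28a2 at 114, 109 and 110 against at most 34.1. These values chose the genes and carry no test. The summed leukocyte markers were likewise highest in bone stem cells, and 12 of 15 were called higher there. Their part in these levels was not tested.

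In the other direction, Slc7a5 was higher in stem Leydig than bone stem cells (1.83 ± 0.20, adjusted p = 1.31e-06), and so was the zinc importer Slc39a10 (275 to 635 against 172, 112 and 118, 1.68 ± 0.23, adjusted p = 1.44e-05). Slc1a3, Slc27a1 and Slc27a3, which rise along the Leydig lineage, were lower in stem Leydig than bone stem cells (-2.65 ± 0.18, -0.96 ± 0.14 and -1.18 ± 0.17), and their bone stem signals lay under those of every later Leydig array. The heme carrier Slc48a1 was at 472 to 587 in bone stem and 143 to 237 in stem Leydig cells (-1.55 ± 0.14, adjusted p = 1.08e-07).

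Partners of these carriers and the ATP-driven ABC transporters were listed for context. Of 21 measured partners and regulators (subunits of the sodium pump, chaperones of monocarboxylate carriers, scaffolds and kinases), 10 were higher and 2 lower in progenitor than stem Leydig cells. In adult against immature cells 6 of them were higher and 7 lower. All probe sets gave 22.0% higher and 14.7% lower at the first step, and 8.05% and 13.0% at the last. The scaffold Pdzk1, which anchors carriers at the membrane, changed by 2.40 at the first step and -2.02 at the last, and the sodium pump regulator Fxyd1 by 2.31 at the first. Fxyd2, another regulator of the pump, and embigin (Emb), a chaperone of monocarboxylate carriers, were the largest differences from bone stem cells, at -4.14 and -3.79. Of 37 ABC transporters, 18 were higher and 0 lower in progenitor than stem Leydig cells, with 2 lower at an unadjusted p under 0.05. Over all probe sets 22.0% were higher at this step, and 32.1% of genes at the level outside the comparison. Abca8a and the cholesterol exporter Abca1 rose most (3.18 and 3.02), and the largest called falls over the 4 comparisons were those of Abca2 from immature to adult cells (-1.15) and of Abcb4 in stem Leydig against bone stem cells (-1.06).

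Other probe sets existed for 51 of the 140 members. Where both the main and another probe set were called at the first step, they had the same direction in 25 pairs and the opposite in 3, which belong to Slc1a3, Slc30a4 and Slc25a36. At the other steps no such pair was opposite.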

How the data were processed

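Total RNA was extracted with Trizol and a column, labelled as biotin cRNA and hybridised to 1 array per sample, per the labels' protocols. The deposited intensities are MAS5 signals on a linear scale, made with GCOS per the submitters' processing notes, and the alignment of probes to a genome build is not given in the sources used here. Control probe sets (57 of 31099) were left out. Gene names came from the platform annotation: 20826 probe sets had 1 symbol, 436 several and 9780 none. For each gene the brightest probe set over the 19 arrays was used. Values were taken as log2(signal + 16) and fitted with limma 3.58.1 in R 4.3.3, with 5 group means over all 19 arrays, a mean trend and Benjamini-Hochberg adjustment over 31042 probe sets. The fit was tested on simulated data. The number of arrays limits the precision. Members and lists were chosen with earlier results of these data known. Genes named by rule were the 5 largest called rises and falls without overlap of arrays in each comparison, the brightest member of each substrate class, 10 well-known carriers, the genes at the edge of the level and the non-carriers. TATAAA was added to the motifs after the data were seen. Deviations of same-numbered arrays showed no consistent pairing (correlations from -0.191 to 0.298, 6 of 13 above 0.1), so replicate numbers were not used as pairs. The alternatives were other scalings, pseudocounts, weights, probe set rules, a replicate block, closest arrays averaged, fits of only the groups compared and arrays left out.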

Additional observations from a re-analysis of the deposited data

Results flagged for a closer look

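Among the genes named by rule, 135 groups of 4 or 5 arrays were examined for 1 array far from the others, and 15 held one; chance flags about 1 in 20 groups. Immature replicate 4, the array nearest to the progenitor group, gave 3 of them: Slc20a1 was 681.2 (others 282.6 to 319.5), Slc38a4 was 291.8 (192.8 to 209.4) and Slc39a1 was 639 (987.4 to 1054). In immature replicate 1, Slc3a2 was 2026 against 2873 to 2997.

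Stem replicate 1 had low signals for the lactate carrier Slc16a3 (602.2, others 923.9 to 1031) and the glucose carrier Slc2a3 (372.7, others 565.3 to 607.4). It had high signals for Slc22a3 (3.322, others 0.6221 to 1.083) and Slco2b1 (14.68, others 6.935 to 8.488), both under 16. Stem replicate 5 stood apart for Aqp9 (13.55 against 1.529 to 4.913) and Slc28a2 (3.8 against 0.7664 to 1.298), also under 16. In stem replicate 3, Slc8a1 was 513.6 against 610.3 to 646.6.

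Adult replicate 2 was high for Aqp1 (12.76 against 2.67 to 3.918) and low for Slc27a3 (927.7 against 1176 to 1202). Adult replicate 3 was high for Slc39a1 (1501 against 1069 to 1102) and Slc47a1 (7.035 against 1.175 to 2.11).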

How the results depend on the processing

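In the analysis reported, 92, 8, 65 and 61 members were called in the 4 comparisons in the order described, and 119 in the F-test. Raising the level for membership to 200 left 88 members, of which 60 were called at the first step, 40 between stem Leydig and bone stem cells and 77 in the F-test, since fewer genes were counted. The count between progenitor and immature cells was 5 at pseudocount 1, 26 when arrays were weighted by quality, 4 with the closest pairs of arrays averaged, 24 without progenitor replicate 3 and immature replicate 4 together, and 0 in limma's fit of those groups alone (34 at an unadjusted p under 0.05). Leaving out 1 array moved it from 3 (without progenitor replicate 1 or 2) to 27 (without immature replicate 4). The count between stem Leydig and bone stem cells was 43 without bone stem replicate 3. With a replicate block the counts were 87, 10, 64, 53 and 118; same-numbered samples were not shown to be paired. The call was kept under every alternative by 66 of 92, 0 of 8, 43 of 65 and 37 of 61 members. Slc33a1 reversed between stem Leydig and bone stem cells, from -0.46 to 0.03149 (adjusted p = 0.915) in the mean of all probe sets. The cause of these changes was not tested, apart from the higher level and the smaller fit. Signals under 16 are near or below the pseudocount, so changes among them are poorly measured.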
